A study of Mus musculus with 24 samples.

Results

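The dystrophin glycoprotein complex was followed through diaphragm development as 8 genes, Dmd, Utrn, Dag1, Sgca, Sgcb, Sgcd, Sspn and Dtna, out of 19351 genes measured. They encode dystrophin, utrophin, dystroglycan, sarcoglycans and partners, and each had 1 probe set matching that gene alone. Other genes of the complex are described separately, and the 8 do not stand for the whole complex. RNA came from C57BL/6J mouse embryos: pleuroperitoneal folds, the paired ridges that give rise to the diaphragm, at E11.5 and at E12.5, and muscularised diaphragm at E16.5, with 8 arrays at each stage. No treatment or mutation is labelled. Tissue was cut by laser capture from 10 μm cryosections, in transverse section for the folds and in sagittal section for the E16.5 diaphragm, so section plane and stage cannot be told apart. Amplified RNA was read on Affymetrix Mouse Gene 1.0 ST arrays, and all levels are log2 values. Because the labels do not say which embryo a sample came from, p-values measure the spread between arrays. Errors of changes are standard errors, errors of means are SD, and n = 8 arrays per stage unless stated.

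The dystrophin glycoprotein complex ties the actin cytoskeleton of a muscle fibre through its surface membrane to laminin in the basement membrane. Dystrophin sits on the inner face, dystroglycan spans to laminin, the sarcoglycans and sarcospan form a subcomplex in the membrane, and dystrobrevins and syntrophins bind dystrophin inside the cell. Loss of dystrophin causes Duchenne muscular dystrophy, loss of a sarcoglycan causes limb-girdle muscular dystrophy, and the diaphragm is a severely affected muscle in dystrophin-deficient mice. Utrophin, the autosomal relative of dystrophin, is found along the membrane of fetal fibres and at the neuromuscular junction of adult ones.

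On GRCm38.p6, Dmd lies at chrX:82814664-85205050, Utrn at chr10:12382187-12869888, Dag1 at chr9:108204861-108263977 and Sspn at chr6:145931873-145965225. Of the sarcoglycan genes, Sgca lies at chr11:94962777-94976327, Sgcb at chr5:73632749-73647737 and Sgcd at chr11:46971077-47989451. Where the probes of each set lie within its gene was not checked here, and the single level per gene does not separate the isoforms that Dmd, Utrn or Dtna make from different starts. Windows are printed for the gene with the largest change, the gene with the smallest and a muscle sarcoglycan. Each holds the 250 bases before a start in RefSeq's table for GRCm38.p6, in lower case. Such a start need not be the outermost start of its gene. Capitals mark matches on either strand to the E-box (CANNTG, bound by myogenic basic helix-loop-helix factors), the CArG box (bound by serum response factor) and the MEF2 site.
Dmd, chrX:82948620-82948869, plus strand: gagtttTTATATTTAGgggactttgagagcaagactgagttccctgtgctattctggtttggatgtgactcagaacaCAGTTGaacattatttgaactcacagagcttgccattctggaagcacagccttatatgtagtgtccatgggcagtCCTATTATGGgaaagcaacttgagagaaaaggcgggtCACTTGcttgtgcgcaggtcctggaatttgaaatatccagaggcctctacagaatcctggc
Dmd, chrX:85048045-85048294, plus strand: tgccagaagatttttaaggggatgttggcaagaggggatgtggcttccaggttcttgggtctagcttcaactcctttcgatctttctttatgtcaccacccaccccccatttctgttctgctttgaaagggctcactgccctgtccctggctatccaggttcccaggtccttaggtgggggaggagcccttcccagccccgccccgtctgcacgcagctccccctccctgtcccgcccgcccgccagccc
Sgca, chr11:94976328-94976577, minus strand: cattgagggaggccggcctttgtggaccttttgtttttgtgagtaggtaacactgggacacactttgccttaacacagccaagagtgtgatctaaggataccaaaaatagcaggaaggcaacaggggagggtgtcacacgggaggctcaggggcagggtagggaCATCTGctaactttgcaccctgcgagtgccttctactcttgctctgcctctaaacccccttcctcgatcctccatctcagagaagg
Utrn, chr10:12861736-12861985, minus strand: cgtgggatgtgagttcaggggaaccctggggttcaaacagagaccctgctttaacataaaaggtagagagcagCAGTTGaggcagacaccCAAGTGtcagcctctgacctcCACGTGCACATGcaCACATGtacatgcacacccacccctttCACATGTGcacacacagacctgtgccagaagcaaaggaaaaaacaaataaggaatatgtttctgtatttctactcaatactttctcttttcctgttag

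Of these windows, the first of Dmd held 2 E-boxes, 1 CArG box whose first base lies 98 bases before the start and 1 MEF2 site that begins 244 bases before it. None of the 3 motifs was found ahead of the other Dmd start. Both Dmd starts, like those used for Utrn and Sgcd, lie inside the gene spans given above. The windows of these 3 genes are therefore not the sequence ahead of the outer end of the gene. For Utrn, on the minus strand, the start used is 12861735, while the span ends at 12869888. Whether that window lies in an intron of a longer Utrn transcript was not checked. Over all 32851 windows of 250 bases in the table, 66.2% held an E-box, 1.47% a CArG box and 2.92% a MEF2 site. The Sgca window held 1 E-box and no other match. The Utrn window held 7 E-boxes, 1 pair of them overlapping. Among the windows not printed, that of Sgcb held none of the 3 motifs and that of Sgcd held 2 E-boxes. The 2 windows of Dag1 overlap and hold the same E-box, and of 2 windows of Sspn 1 held an E-box. A match is a description of the letters and shows no binding.

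Some arrays stood apart from the rest of their stage in ways that touch these genes. The mean of 15 muscle fibre genes, among them Acta1, Myh3, Ttn and Ckm, was 11.42 on E12.5 replicate 3, against at most 9.79 on the other E12.5 arrays. E12.5 replicate 2 had the highest mean of 9 hepatocyte genes of that stage, 12.24, against at most 10.79. The same array had the lowest muscle fibre mean of its stage, 8.04, against at least 9.19 on the others, and the highest mean of 5 red cell genes, 9.51, against at most 8.41. E16.5 replicates 1 to 4 had muscle fibre means of 12.90 to 13.09 and replicates 5 to 8 of 12.44 to 12.73, a division by number that the labels do not explain. Array medians lay between 7.45 and 7.57. Array lower quartiles lay between 6.40 and 6.64, and below its lower quartile a gene's signal was not told from background.

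All 8 genes of the complex were higher in E16.5 diaphragm than in E12.5 folds, and all 8 were higher than in E11.5 folds (limma, adjusted p under 0.05 over all genes). Of 7 other genes of the complex, 1 was higher in the first of these comparisons and 2 in the second. Among all 19351 genes, 11.49% were called higher at E16.5 against E12.5 and 13.8% against E11.5. Dmd and Dtna had the largest changes, of 3.97 and 3.02 on the log2 scale at E16.5 against E12.5. Sgcb, Sgcd, Sspn and Sgca changed by 1.56 to 1.93, Dag1 by 0.93 and Utrn by 0.62. The median change of the 8 genes was 1.89, beside a median of -0.02 over all genes. Between E12.5 and E11.5 folds only Sgcb was called, where 0.331% of all genes were called higher and 0.0568% lower. For none of the 8 did every E12.5 array lie above every E11.5 array, a separation seen in 0.093% of all genes. For 7 of the 8 genes every E16.5 array lay above every E12.5 array, a separation seen in 4.69% of all genes, and above every E11.5 array, seen in 5.22%. Utrn was the exception in both.

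**Figure D1:**
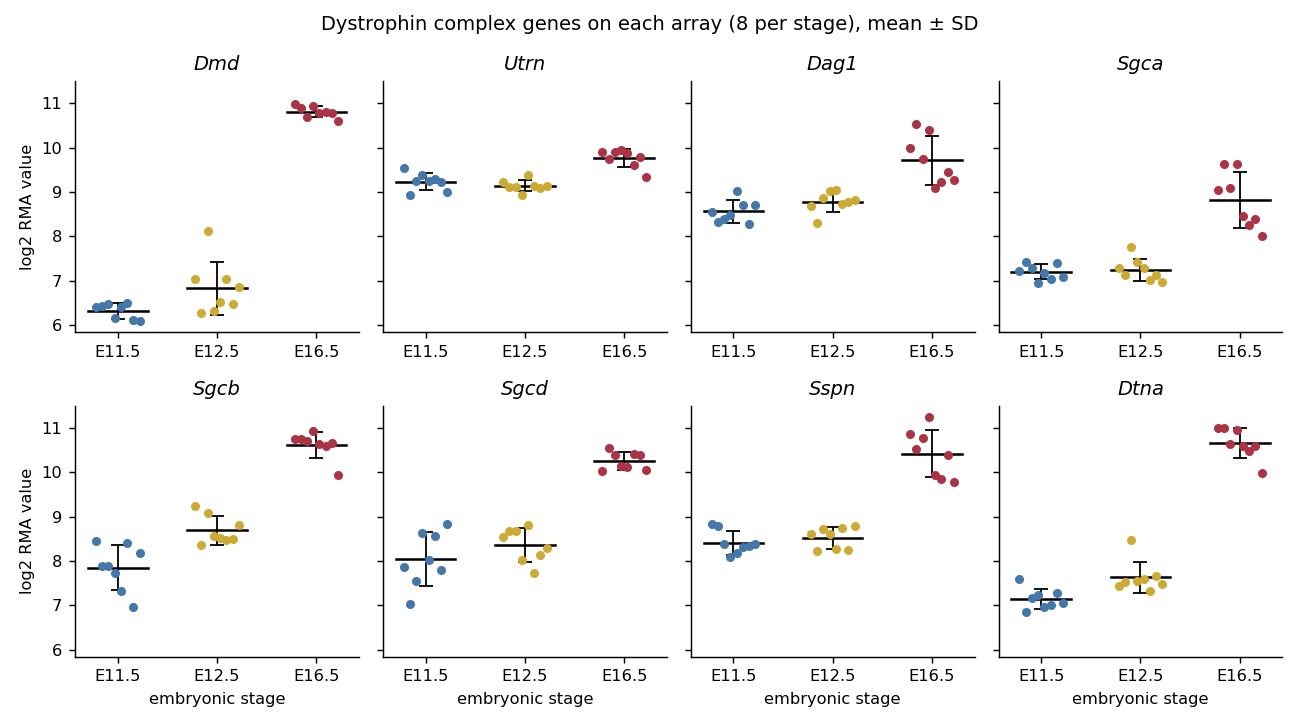
Log2 RMA value (vertical axis) of each of the 8 genes on every array by embryonic stage (horizontal axis), with replicates 1 to 8 from left to right within a stage. Points are arrays, the long bar is the mean and the whiskers are ± SD. The E16.5 points of Dmd lie between 10.59 and 10.98, above all earlier arrays, while the lowest E16.5 point of Utrn, 9.34, lies below the highest at E12.5, 9.39.

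Dmd encodes dystrophin, the rod that joins actin to the membrane complex. Its log2 value lay between 6.10 and 6.50 (median 6.40) at E11.5, between 6.27 and 8.12 (median 6.69) at E12.5 and between 10.59 and 10.98 (median 10.79) at E16.5. The E16.5 arrays were tightly grouped and far above both sets of folds, which overlapped. Dmd was below the array's own lower quartile on all 8 E11.5 arrays and on 4 of the 8 E12.5 arrays, so that its changes from the folds are lower bounds at best. The fitted change was 3.97 ± 0.18 at E16.5 against E12.5 (limma, adjusted p = 3.15e-14), and 4.48 ± 0.18 against E11.5 (limma, adjusted p = 1.90e-15). Between the folds, E12.5 against E11.5, Dmd differed by 0.51 ± 0.18 and did not pass the threshold (limma, adjusted p = 0.202). The highest E12.5 value, 8.12, was that of replicate 3, the array with the highest muscle fibre mean. Without it the difference was 0.32 (limma, adjusted p = 0.261).

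Utrn, which encodes utrophin, changed least of the 8. It lay between 8.94 and 9.54 (median 9.24) at E11.5, between 8.94 and 9.39 (median 9.13) at E12.5 and between 9.34 and 9.95 (median 9.83) at E16.5. Of the 8 E16.5 arrays 7 were above all folds, and the lowest overlapped with them. The mean at E16.5 was 9.76 ± 0.20, against 9.14 ± 0.13 at E12.5. That is a rise of 0.62 ± 0.09, or 1.54-fold (limma, adjusted p = 7.12e-06). Against E11.5 the rise was 0.53 ± 0.09 (limma, adjusted p = 4.89e-05), and the folds differed by -0.09 ± 0.09 (limma, adjusted p = 0.648). Dmd changed more than its relative. The within-array difference of Dmd and Utrn was larger by 3.35 at E16.5 than at E12.5 (two-sided exact permutation test, p = 1.55e-04, the smallest that 8 arrays against 8 allow, and 3.33e-04 adjusted over 30 comparisons of gene pairs). The size of this difference has no firm value, since Dmd lay below the lower quartile on 4 of the 8 E12.5 arrays.

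Dag1 encodes the precursor of both dystroglycans, the laminin receptor of the complex. Its values lay between 8.27 and 9.03 (median 8.52) at E11.5, between 8.29 and 9.04 (median 8.80) at E12.5 and between 9.08 and 10.54 (median 9.59) at E16.5. The E16.5 arrays were all above the folds, by a narrow margin at their lower end, and spread widely. Dag1 rose by 0.93 ± 0.18 at E16.5 against E12.5 (limma, adjusted p = 2.44e-04) and by 1.15 ± 0.18 against E11.5 (limma, adjusted p = 1.48e-05). The difference of the folds, 0.22 ± 0.18, did not pass (limma, adjusted p = 0.572). Of the E16.5 arrays, replicates 1 to 4 held 9.74 to 10.54 and replicates 5 to 8 held 9.08 to 9.44. Against E12.5 the rise was 1.38 with replicates 1 to 4 alone and 0.47 with replicates 5 to 8 alone, where it still passed the threshold (limma, adjusted p = 0.0179).

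The sarcoglycans are single-pass membrane proteins that assemble together. Sgca, restricted to striated muscle, lay between 6.95 and 7.43 (median 7.19) at E11.5, between 6.98 and 7.75 (median 7.21) at E12.5 and between 8.0 and 9.64 (median 8.75) at E16.5. All E16.5 arrays were above the folds, and the folds shared nearly the same range. Sgca rose by 1.56 ± 0.19 at E16.5 against E12.5, or 2.95-fold (limma, adjusted p = 5.76e-07), and by 1.61 ± 0.19 against E11.5 (limma, adjusted p = 2.59e-07). The folds differed by 0.05 ± 0.19 (limma, adjusted p = 0.92). Replicates 1 to 4 at E16.5 held 9.04 to 9.64 and replicates 5 to 8 held 8.0 to 8.46. With replicates 5 to 8 alone the rise against E12.5 was 1.03 (limma, adjusted p = 5.13e-06) and with replicates 1 to 4 alone 2.10.

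Sgcb, a sarcoglycan that muscle shares with other tissues, was the gene of the complex called at the first step. It lay between 6.96 and 8.45 (median 7.88) at E11.5, between 8.36 and 9.23 (median 8.54) at E12.5 and between 9.94 and 10.92 (median 10.69) at E16.5. The folds met only at the edge of their ranges, and the E16.5 arrays were clear of both. Sgcb was higher at E12.5 than at E11.5 by 0.84 ± 0.18, or 1.79-fold (limma, adjusted p = 0.0386). This call was narrow. It was kept in 11 of 24 fits that left out 1 array and in 5 of 14 fits with another setting, with adjusted p-values of 0.0212 to 0.0923 in the first kind of fit and 0.0329 to 0.127 in the other. At E16.5 Sgcb rose by 1.93 ± 0.18 against E12.5 (limma, adjusted p = 1.13e-08) and by 2.77 ± 0.18 against E11.5 (limma, adjusted p = 1.23e-11), a 6.81-fold change against E11.5.

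Sgcd, the sarcoglycan that forms a core with the product of Sgcb, lay between 7.03 and 8.83 (median 7.95) at E11.5, between 7.74 and 8.80 (median 8.42) at E12.5 and between 10.02 and 10.54 (median 10.26) at E16.5. It was the most scattered of the 8 genes at E11.5, with an SD of 0.61, and among the tightest at E16.5, with an SD of 0.20. Its rise at E16.5 was 1.89 ± 0.20 against E12.5 (limma, adjusted p = 7.91e-08) and 2.22 ± 0.20 against E11.5 (limma, adjusted p = 3.89e-09). The folds differed by 0.33 ± 0.20 (limma, adjusted p = 0.465). Unlike Sgca and Sgcb, its E16.5 values overlapped between replicates 1 to 4, at 10.02 to 10.54, and replicates 5 to 8, at 10.05 to 10.40.

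Sspn encodes sarcospan, a small membrane protein with several spans that joins the sarcoglycans. It lay between 8.08 and 8.84 (median 8.36) at E11.5, between 8.22 and 8.79 (median 8.60) at E12.5 and between 9.77 and 11.24 (median 10.46) at E16.5. The E12.5 arrays lay within the range of the E11.5 arrays, and the E16.5 arrays lay above both with a wide spread. Sspn rose by 1.89 ± 0.18 at E16.5 against E12.5, or 3.72-fold (limma, adjusted p = 8.07e-09), and by 2.0 ± 0.18 against E11.5 (limma, adjusted p = 1.97e-09). Between the folds it differed by 0.11 ± 0.18 (limma, adjusted p = 0.796). Replicates 1 to 4 at E16.5 held 10.53 to 11.24 and replicates 5 to 8 held 9.77 to 10.39. With E16.5 replicates 5 to 8 alone the rise against E12.5 was 1.46, and with replicates 1 to 4 alone it was 2.33.

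Dtna, at chr18:23310006-23659719 on GRCm38.p6, encodes alpha-dystrobrevin, the dystrophin-related partner that carries syntrophins. Its values lay between 6.85 and 7.59 (median 7.11) at E11.5, between 7.33 and 8.47 (median 7.53) at E12.5 and between 9.98 and 10.99 (median 10.61) at E16.5. The E16.5 arrays stood well clear of the folds, and the highest E12.5 value was again that of replicate 3, against at most 7.67 on the others. Dtna rose by 3.02 ± 0.15 at E16.5 against E12.5, or 8.10-fold (limma, adjusted p = 1.58e-13), which took rank 86 among the rises of all genes. Against E11.5 it rose by 3.51 ± 0.15 (limma, adjusted p = 8.65e-15). The folds differed by 0.49 ± 0.15 (limma, adjusted p = 0.16), and by 0.37 without replicate 3 (limma, adjusted p = 0.261).

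A contrast of the later change with the earlier one compared the intervals, which differ in length. For 7 of the 8 genes the change from E12.5 to E16.5 was larger than that from E11.5 to E12.5 (limma, adjusted over all genes), where 4.52% of all genes were called in that direction. The excess was 2.53 ± 0.26 for Dtna (limma, adjusted p = 5.63e-07). For Dmd the fitted excess was 3.46 ± 0.30 (limma, adjusted p = 6.83e-08), but its size has no firm value, since Dmd lay below the lower quartile on all 8 E11.5 arrays and on 4 of the 8 E12.5 arrays and both changes rest on those levels. It was 1.78 for Sspn, 1.57 for Sgcd, 1.51 for Sgca and 0.71 for Utrn. Dag1, also at 0.71, did not pass (limma, adjusted p = 0.155). Sgcb passed with 1.09 ± 0.32 (limma, adjusted p = 0.0268), but not without E12.5 replicates 2 and 3 (1.11, adjusted p = 0.0513) nor with E16.5 replicates 5 to 8 alone (0.93, adjusted p = 0.14). Leaving out E12.5 replicate 2, 5, 6 or 7 singly also ended the Sgcb call, with adjusted p-values of 0.058, 0.0562, 0.0606 and 0.0583 (limma).

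**Figure D2:**
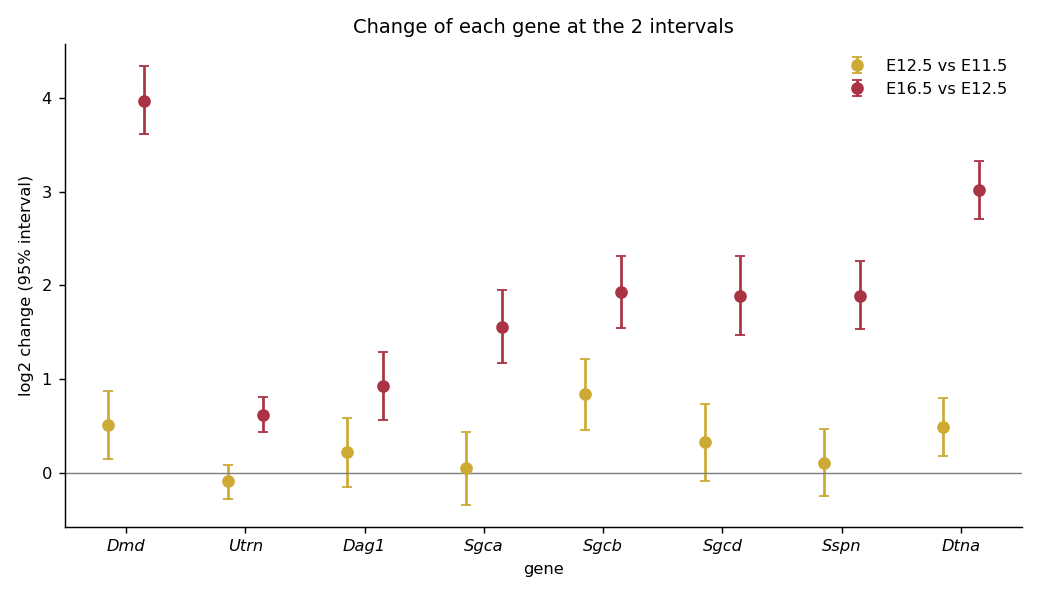
Log2 change (vertical axis) of each of the 8 genes (horizontal axis) at E12.5 against E11.5 and at E16.5 against E12.5, with 95% intervals from the limma fit of 24 arrays. Dmd at 3.97 and Dtna at 3.02 stand above the others in the later interval, and in the earlier one Sgcb has the highest point, at 0.84.

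Whether the genes changed by equal amounts was examined on the difference between a pair of genes within each array, which does not need their levels to be comparable. Of 30 comparisons, 10 pairs at 3 pairs of stages, 17 passed an adjusted p of 0.05 in the exact permutation test. Sizes involving Dmd have no firm value, since it lay below the lower quartile on all 8 E11.5 and 4 of 8 E12.5 arrays. At E16.5 against E12.5 Dmd changed more than each of the other 7 genes, by 0.95 more than Dtna and by 2.04 to 3.05 more than Sgcb, Sgcd, Sspn, Sgca and Dag1 (adjusted p = 3.33e-04 for each, permutation test). The 3 sarcoglycans were not told apart in that interval: Sgca minus Sgcb was -0.37 (adjusted p = 0.108, permutation test) and Sgcb minus Sgcd 0.04 (adjusted p = 0.855, permutation test). The Sgca differences moved with the E16.5 arrays used. With replicates 5 to 8 alone Sgca changed by 0.74 less than Sgcb and by 0.84 less than Sgcd (adjusted p = 0.00673 for each, permutation test), and with replicates 1 to 4 alone the differences were 0.01 and 0.19. At E12.5 against E11.5 Sgca changed by 0.79 less than Sgcb (adjusted p = 0.00554, permutation test), and Dmd by 0.60 more than Utrn (adjusted p = 0.014, permutation test), a pair whose call ended when same-numbered arrays were paired (adjusted p = 0.0551, exact paired permutation test). At E16.5 against E11.5 Sgca changed by 1.15 less than Sgcb (adjusted p = 0.00186, permutation test), a call that ended with E16.5 replicates 1 to 4 alone (-0.78, adjusted p = 0.0596, permutation test).

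Other genes of the complex were described from a list of 9, of which 7 were analysed here. At E16.5 against E12.5 1 of the 7 was higher, 1 was lower and 5 did not pass the threshold, and 15.6% of all genes were called lower. The median of the 7 changes was -0.01. Sntb1, which encodes beta-1-syntrophin, an adaptor on dystrophin and dystrobrevin, lay between 7.38 and 8.10 at E11.5, between 7.92 and 8.87 at E12.5 and between 9.66 and 10.66 at E16.5. It rose by 1.85 ± 0.14 at E16.5 against E12.5 (limma, adjusted p = 1.60e-10), with no overlap between those stages. Sntb1 differed by 0.54 ± 0.14 at E12.5 against E11.5 (limma, adjusted p = 0.0877).

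Dtnb, which encodes beta-dystrobrevin, the form of dystrobrevin known from non-muscle tissues such as brain and kidney, went the other way from Dtna. Its values lay between 8.33 and 9.18 (median 8.70) at E11.5, between 8.57 and 9.26 (median 8.73) at E12.5 and between 7.36 and 8.20 (median 8.0) at E16.5. Every E16.5 array was below every fold array. Dtnb fell by 0.89 on the log2 scale at E16.5 against E12.5 (SE 0.13, limma, adjusted p = 5.99e-06), to 0.541 of its E12.5 level. Against E11.5, where 19.6% of all genes were called lower, it fell by 0.78 (limma, adjusted p = 2.85e-05), a call that ended with the hepatocyte mean as a covariate (-0.91, adjusted p = 0.0658). The folds differed by 0.11 ± 0.13 (limma, adjusted p = 0.712), and the later change was lower than the earlier one by 0.99 (-0.99 ± 0.22, limma, adjusted p = 0.00401), a direction called in 6.26% of all genes.

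The other 5 moved little. Sgce, the epsilon-sarcoglycan of many tissues, averaged 9.24 ± 0.45 in E11.5 folds, 9.56 ± 0.32 in E12.5 folds and 9.77 ± 0.18 in E16.5 diaphragm. It was higher at E16.5 than at E11.5 by 0.53 ± 0.16 (limma, adjusted p = 0.0125), but not with the hepatocyte mean as a covariate (0.85, adjusted p = 0.194) nor with E16.5 replicates 1 to 4 alone (0.44, adjusted p = 0.124), and it was called in no other comparison. Sntb2, which encodes beta-2-syntrophin, differed by 0.40 ± 0.10 at E12.5 against E11.5 (limma, adjusted p = 0.0761) and by -0.17 ± 0.10 at E16.5 against E12.5 (limma, adjusted p = 0.258). Its later change was lower than its earlier one by 0.57 (-0.57 ± 0.17, limma, adjusted p = 0.0357), a call lost under 6 of 13 other settings, with adjusted p-values of up to 0.124. Sgcz lay below the arrays' lower quartiles on 23 arrays and Sntg1 on 20, with Sgcz between 6.10 and 6.46 over the 24 arrays, and Sntg2 lay between 6.65 and 7.03. None of these 3 was called in any comparison by limma, nor had any of them an unadjusted p under 0.05.

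**Figure D3:**
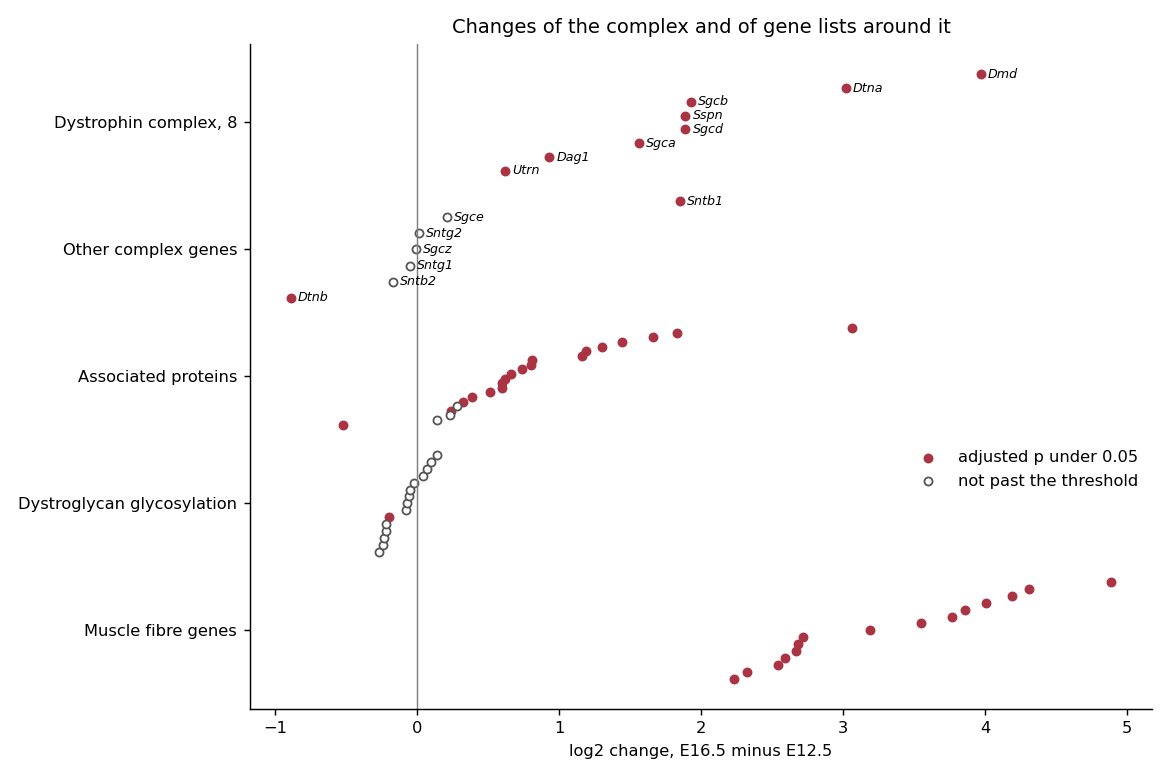
Log2 change at E16.5 minus E12.5 (horizontal axis) of each gene in 5 lists (rows), filled where the adjusted p was under 0.05. All 8 genes of the complex and all 15 muscle fibre genes lie right of 0 and are filled, Dtnb lies at -0.89, and 14 of 15 glycosylation genes are open.

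Proteins that bind the complex or share its place at the fibre surface were taken as a list of 22 genes. At E16.5 against E12.5 18 of them were higher, 1 was lower and 3 did not pass, with a median change of 0.64. Cav3, which encodes the caveolin of muscle membranes, rose by 3.06 ± 0.16 (limma, adjusted p = 4.62e-13). Lama2, the alpha chain of the laminin that dystroglycan binds in muscle, rose by 1.83 ± 0.12 (limma, adjusted p = 1.02e-11). The cytolinkers Plec and Dst rose by 1.66 ± 0.14 and 1.44 ± 0.11. Agrn, whose product agrin also binds dystroglycan, fell by 0.52 on the log2 scale (SE 0.12, limma, adjusted p = 0.00186). At E16.5 against E11.5 19 were higher and 1 lower, Ank2, an ankyrin that binds dystrophin, among the rises with 1.57 ± 0.10. At E12.5 against E11.5 0 of the 22 were called by limma (unadjusted, 4 were higher and 1 lower).

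Dystroglycan binds laminin only after a set of enzymes has added sugars to it. A list of 19 genes was taken for this glycosylation, and 15 of them were analysed here. Not all of these encode enzymes that act on dystroglycan itself. At E16.5 against E12.5 none of the 15 was called higher by limma (0 also at an unadjusted p under 0.05), 1 was lower and 14 did not pass, with a median change of -0.07. The gene called was Large2, a glycosyltransferase of this pathway, at -0.20 ± 0.06 (limma, adjusted p = 0.0175). Its level was low, below the lowest array median of 7.45 on every array, though not below any array's lower quartile. It lay between 7.04 and 7.24 at E11.5, between 6.96 and 7.31 at E12.5 and between 6.73 and 7.12 at E16.5, so the stages overlapped. At E16.5 against E11.5 2 were lower, Large2 at -0.26 ± 0.06 and Dpm2, a subunit of dolichol-phosphate-mannose synthase, at -0.54 ± 0.14 (limma, adjusted p = 0.00458). Dag1 was higher in both comparisons, as given above.

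Muscle fibre genes, like the complex, rose at E16.5. All 15 were higher than at E12.5, with a median change of 3.19, beside 1.89 for the 8 genes of the complex. At E12.5 against E11.5, 5 of the 15 were called higher. Their median change there was 1.16, beside 0.27 for the 8 genes, of which only Sgcb was called. The mean of the muscle fibre genes lay between 7.96 and 9.31 at E11.5, between 8.04 and 11.42 at E12.5 and between 12.44 and 13.09 at E16.5. In bulk tissue more muscle cells and more RNA per muscle cell cannot be told apart. On E12.5 replicate 3, the array with the highest muscle mean of its stage, 3 of the 8 genes also had their highest E12.5 values, Dmd at 8.12, Sgca at 7.75 and Dtna at 8.47. The other 5 had theirs elsewhere: Utrn, Dag1 and Sgcd on replicate 5, Sgcb on replicate 1 and Sspn on replicate 8. On replicate 2, the array with the lowest muscle mean of its stage, 4 of the 8 genes had their lowest E12.5 values, Dmd at 6.27, Dag1 at 8.29, Sgcb at 8.36 and Sspn at 8.22. That array also had the highest hepatocyte mean, 12.24, and the highest red cell mean, 9.51, of its stage. The share of all genes highest on replicate 3 or lowest on replicate 2 was not counted. A link of these counts to the muscle mean was not tested. Within E16.5, replicates 1 to 4 lay wholly above replicates 5 to 8 for Dag1, Sgca, Sgcb, Sspn and Dtna and for the muscle mean. That is 5 of the 8 genes, where 6.43% of all genes were so ordered. Dmd, Utrn and Sgcd overlapped between these sets.

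**Figure D4:**
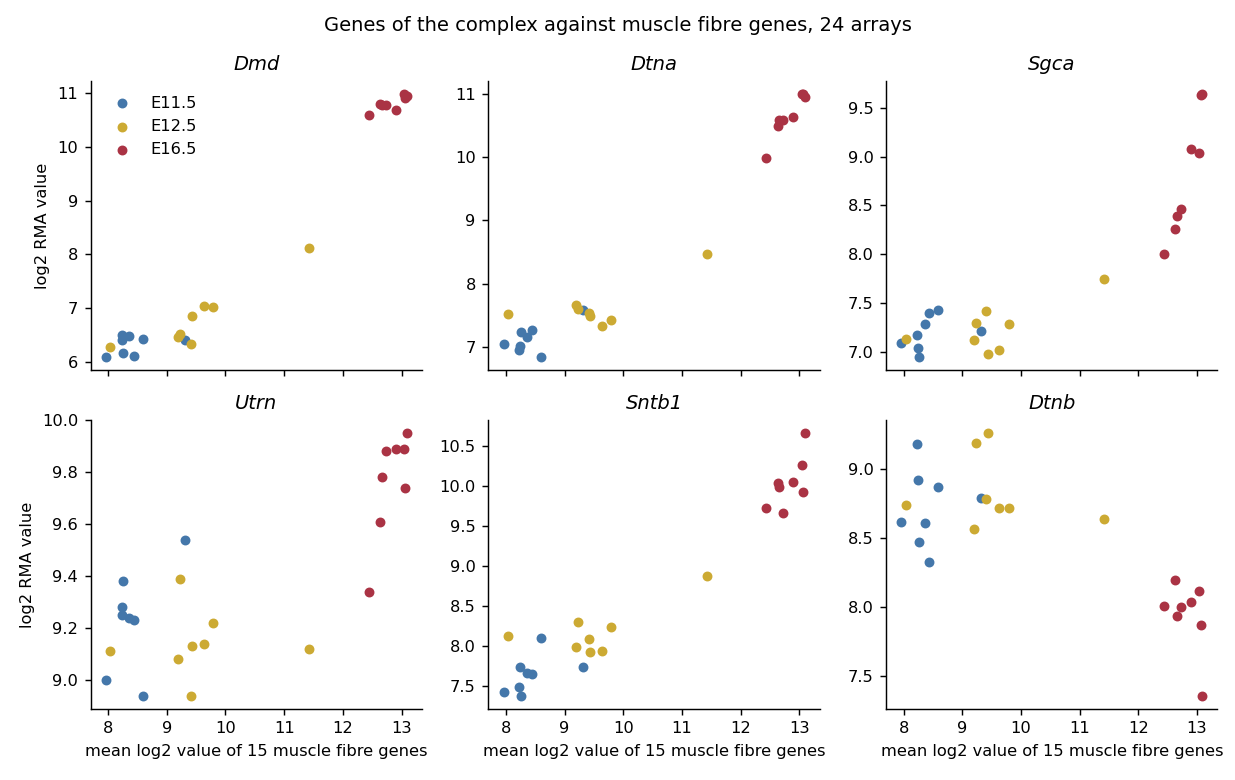
Log2 RMA value (vertical axes, each with its own range) of Dmd, Dtna, Sgca, Utrn, Sntb1 and Dtnb against the mean log2 value of 15 muscle fibre genes (horizontal axis) on 24 arrays, coloured by stage. The E12.5 array at a muscle mean of 11.42 has the highest Dmd, Dtna, Sgca and Sntb1 of its stage, and at E16.5 Dtnb lies lowest, at 7.36, on replicate 4.

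Markers of other cells were measured on the same arrays. All 9 hepatocyte genes were higher at E16.5 than at E12.5, and their mean lay between 6.92 and 7.34 at E11.5, between 8.08 and 12.24 at E12.5 and between 10.13 and 12.20 at E16.5. With this mean as a covariate all 8 genes of the complex were called at E16.5 against E12.5, Dmd at 4.23 and Utrn at 0.75. The hepatocyte mean itself rose with stage, so this fit cannot cleanly separate hepatocyte RNA from stage. Of 8 endothelial genes 7 were higher, with a mean between 8.28 and 9.30 at E16.5, against 7.72 to 8.34 at E12.5. Of 6 lung epithelium genes 2 were higher, with a mean between 7.18 and 8.20 at E16.5, against 6.68 to 6.93 at E12.5. For smooth muscle and pericytes 3 of 8 were higher and 1 lower, for neurons 0 higher and 2 lower of 8, for mesothelium 2 higher and 1 lower of 6, for cardiomyocytes 1 higher of 6, for macrophages 1 higher of 8, for Schwann cells 1 lower of 5 and for red cells 0 of 5 called (limma; at an unadjusted p under 0.05 also 0 red cell genes, and 0 neuron genes higher). The part of hepatocytes, endothelial cells and lung cells in the changes of the complex was not tested.

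The genes whose profile over the 24 arrays was nearest to each gene of the complex were found by the root mean square difference of log2 values after each gene's mean was taken away. Nearest to Dmd were Myom2 at 0.311, Myf6 at 0.326 and Abca8a at 0.33. Nearest to Dtna were Txlnb at 0.245, Nrap at 0.252 and Eno3 at 0.283. Nearest to Sgca were Trim72 at 0.183, Slc9a2 at 0.197 and Coro6 at 0.205, and nearest to Sspn were Slc9a2 at 0.243, Lama2 at 0.247 and Pacsin3 at 0.258. Sgcb had Ccng1 at 0.345, Septin4 at 0.361 and Sntb1 at 0.389, and Sgcd had Tarsl2 at 0.412, Ccng1 at 0.443 and G0s2 at 0.444. Utrn was nearest to Rapgef2 at 0.154, Rab10 at 0.158 and Tpm1 at 0.168, and Dag1 to Igfbp6 at 0.23, Speg at 0.253 and Slc25a4 at 0.265. Within the complex the closest pair was Sgca and Sspn at 0.324, and the farthest was Dmd and Utrn at 1.78. A gene with a small change has a small distance to any other gene of small change, so the distances are not comparable between genes of different range.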

How the data were processed

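RNA of 24 embryonic diaphragm samples, 8 per stage as the labels give it, was measured on 1-colour arrays. The values deposited by the authors are RMA values, taken here as log2 from their range of 2.56 to 14.12; the submitters' processing notes name R 2.9.2, RMA and Affymetrix Expression Console 1.1. Of 24200 probe sets 20760 matched 1 gene symbol, and the one with the highest mean was kept per gene, which gave 19351 genes with no filter on low values. The stage means were fitted over all 24 arrays with limma 3.58.1 under R 4.3.3, and two-sided moderated tests were adjusted over the 19351 genes by the Benjamini-Hochberg method, with a threshold of 0.05. Pairs of genes were compared by exact permutation over arrays. On simulated data of 19351 genes with the design of E16.5 against E12.5, limma called 64% of genes changed by 0.5 and 94% of those changed by 1 on the log2 scale, and 0.0418% of unchanged genes. The simulated noise was independent between genes, and far fewer genes changed than were called on the real arrays. These rates therefore need not hold for the real arrays. The members, the 15 gene lists and the alternatives were chosen with earlier results of these data known. All 8 members are named, all genes of the list of other complex genes, up to 4 called genes per direction with the largest change of the associated and glycosylation lists, and the 3 nearest profiles of each member. Arrays have no read depth, so their number limits the precision. Tables and figures used Python 3.11.15, pandas 2.3.3 and matplotlib 3.10.9. Same-numbered arrays of different stages had correlations of deviations of -0.28 to 0.09, none over 0.1, so the numbers were not taken as pairs.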

Additional observations from a re-analysis of the deposited data

Results flagged for a closer look

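Within a stage, single arrays stood far from the other 7 by Dixon's criterion (a gap to the nearest array, as a share of the stage's range, above the critical value for 8 arrays) in 7 of 45 groups of 8 arrays. Chance flags about 1 in 20 groups. Of the 7, 3 were on E12.5 replicate 3, the array with a muscle fibre mean of 11.42: Dmd at 8.12, with the next array at 7.05, Dtna at 8.47, with the next at 7.67, and Sntb1 at 8.87, with the next at 8.30. On E12.5 replicate 2, which had the highest hepatocyte and red cell means and the lowest muscle fibre mean of its stage, Dag1 was low at 8.29, with the next array at 8.69. At E16.5 Sgcb was low on replicate 8 at 9.94, with the next at 10.60, and Dtnb was low on replicate 4 at 7.36, with the next at 7.87. Sntg1 was high on E16.5 replicate 7 at 6.83, with the next at 6.37, near the lower quartiles of the arrays.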

How the results depend on the processing

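All 8 genes of the complex were called at E16.5 against E12.5 and against E11.5 under each of 14 other settings and in each of 24 fits without 1 array. At E12.5 against E11.5 the count was 1, and it was 0 with only the 2 stages compared, the replicate number as a block, quantile normalization again, arrays centred on the 75th percentile, the hepatocyte mean or Eif2s3y as a covariate, without E12.5 replicates 2 and 3, and with E16.5 replicates 1 to 4 or 5 to 8 alone. Without single arrays it ran from 0 to 1. The cause of these losses was not tested. The count of genes that changed more in the later interval was 7, from 6 to 7 without single arrays and from 6 to 8 elsewhere; with E16.5 replicates 1 to 4 alone Dag1 joined it (1.16, adjusted p = 0.00206). Of 30 gene-pair comparisons 17 passed, 17 to 19 without single arrays and 16 to 21 elsewhere.

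Signs turned for values that were not called. At E12.5 against E11.5 Sgca was -0.02 centred on the 75th percentile and -0.01 without E12.5 replicates 2 and 3, and Utrn was 0.05 with the hepatocyte covariate. For Sgce the difference between the intervals, -0.11, was 0.01 centred on the 75th percentile and 0.05 without E12.5 replicates 2 and 3. Sgcb minus Sgcd at E16.5 against E12.5 was -0.06 without E12.5 replicates 2 and 3 and -0.10 with E16.5 replicates 5 to 8 alone. With replicates 1 to 4 alone Sgca minus Sgcb was 0.01 and Sgca minus Sgcd 0.19. Leaving out single arrays gave -0.02 to 0.09 for Sgca (without E12.5 replicate 3 -0.02), -0.19 to 0.09 for the interval difference of Sgce, -0.05 to 0.08 for Dmd minus Dtna at E12.5 against E11.5, and -0.05 to 0.11 for Sgcb minus Sgcd at E16.5 against E12.5.

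With the replicate number as a block, which the labels do not say pairs the arrays, Sgcb at E12.5 against E11.5 kept its change of 0.84 with an adjusted p of 0.0616 (limma), and the 8, 8 and 7 calls of the other contrasts were the same in number. Using another probe set of a member was not run, since each has 1, and the mean over probe sets leaves the members' values as they are. The limits are those of the arrays: Dmd in folds lies near background, isoforms are not separated, levels of different genes are not comparable, and stage, section plane and cell makeup differ together.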
